A study of Mus musculus with 4 samples.

Results

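The 6 genes described here are those of the hepatic urea cycle, Cps1, Otc, Ass1, Asl and Arg1, together with Slc7a2, a transporter of arginine, lysine and ornithine. They were chosen by gene symbol: every probe set that the platform annotation gives 1 of these symbols and no other was taken. This gave 7 probe sets (2 for Asl and 1 for each other gene) of 10833 with a single symbol, or 6 of 8251 genes. All 6 genes were called Present on at least 1 array and 5 of them on all 4 arrays. Liver RNA came from male C57BL/6 mice, and 4 MG_U74Av2 arrays (Affymetrix GeneChips) were hybridised, 1 for each group. These groups were adrenalectomised mice (ADX, both adrenal glands removed under ketamine and xylazine, with saline to drink) at zeitgeber time (ZT) 14, ADX mice at ZT2, sham-operated mice at ZT14 and sham-operated mice at ZT2, where ZT counts hours from lights on. All groups ate standard chow, and the sham mice drank water. The labels do not give the age of the mice, the number of mice behind an array, or whether corticosterone was measured after the operation. With 1 array per group no difference between groups has a replicate check.

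The urea cycle turns ammonia from amino acid breakdown into urea, mainly in the hepatocytes around the portal vein. Cps1 (carbamoyl phosphate synthetase) and Otc (ornithine transcarbamylase) act in mitochondria and make citrulline. In the cytosol Ass1 joins citrulline to aspartate, Asl splits the product into arginine and fumarate, and Arg1 (liver arginase) cleaves arginine into urea and ornithine. Slc7a2, also called CAT-2, carries cationic amino acids across the plasma membrane. In rat liver and hepatocytes, glucocorticoids and glucagon are known to raise the mRNA of urea cycle enzymes. The comparisons below ask how these mRNAs stood with and without adrenal glands at each time, and between the times with and without adrenal glands.

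RefSeq promoter windows (build GRCm38.p6, 250 bases before to 50 after the start site) matched 2 of the 6 genes. Both are shown because only these genes had a window. Among the 6 genes Ass1 had the widest span over the arrays and Otc the narrowest. A link between promoter letters and span was not tested. Capitals mark matches to any of 6 motifs searched on both strands, whose letters are given below with their share of all windows. The window of Ass1 is chr2:31470020-31470319 and that of Otc is chrX:10252055-10252354, both on the plus strand. The start site of the Otc window lies inside the gene span given below, which begins at 10252230.
Ass1: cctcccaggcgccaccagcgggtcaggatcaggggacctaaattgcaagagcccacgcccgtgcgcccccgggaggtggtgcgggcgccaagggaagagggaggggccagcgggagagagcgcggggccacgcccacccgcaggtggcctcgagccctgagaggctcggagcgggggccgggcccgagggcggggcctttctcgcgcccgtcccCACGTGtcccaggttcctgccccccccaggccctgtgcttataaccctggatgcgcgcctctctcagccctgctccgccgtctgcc
Otc: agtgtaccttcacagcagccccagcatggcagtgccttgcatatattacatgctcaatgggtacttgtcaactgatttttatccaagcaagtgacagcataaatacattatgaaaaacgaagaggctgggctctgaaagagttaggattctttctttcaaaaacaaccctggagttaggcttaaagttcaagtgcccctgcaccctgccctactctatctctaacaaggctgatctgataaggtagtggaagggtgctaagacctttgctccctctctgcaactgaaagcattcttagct
The Ass1 window held 1 match, an E-box that begins at position -36 from the start site, and the Otc window held none. The E-box searched was CACGTG, found in 7.15% of 32851 RefSeq windows. Of the motifs without a match in either gene, the glucocorticoid response element half-site was spelled TGTTCT and occurred in 19.0% of all windows. The cAMP response element half-site was spelled TGACG and occurred in 20.8%. A nuclear receptor half-site with the letters AGGTCA was found in 16.3%. The box bound by NF-Y, with the letters CCAAT, was found in 37.4%, and the TATA box, searched as TATAAA, in 13.6%. None of these motifs contains another. The Ass1 window was 74.0% G and C and the Otc window 44.3%, against a median of 52.7% over all windows. A match is a run of letters and not a bound site.

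Signals are deposited Affymetrix intensities that were scaled to a common trimmed mean of 59.4 units. Present calls covered 44.4% to 47.0% of the probe sets on each array. Each probe set binds with its own strength, so signals are compared between arrays and not between genes. Only the size of a difference was used for calls: a probe set counted when its signals were 2-fold or more apart with a Present call on the brighter side. The robust SD of log2 differences, over probe sets with Present calls on both sides, was 0.25 for ADX against sham at ZT2, 0.31 at ZT14, 0.33 for ZT14 against ZT2 in ADX and 0.35 in sham. This SD describes the spread across genes between a pair of arrays and serves as a yardstick here, since the spread between mice is not known. As a check on the time labels, Dbp, a clock output factor, had signals of 116 (ADX ZT14) and 98.2 (sham ZT14) and was Absent on both ZT2 arrays. All 8 hepatocyte markers on the array were Present in every group, and none of 6 skeletal muscle markers was Present in any. Of 4 exocrine pancreas markers on the array, 1 (Cela1) was Present in every group, as were 2 of 4 small intestine and 1 of 4 adipose markers. The red cell marker Hba-a1 had signals of 1789 (ADX ZT14), 1261 (ADX ZT2), 874 (sham ZT14) and 1552 (sham ZT2). Alas2, the other red cell marker detected, was lowest on ADX ZT14, at 171. The part of blood or other tissues in the values of the 6 genes was not tested.

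The mitochondrial steps were nearly level across the 4 arrays. Cps1, at chr1:67122426-67231267, had signals of 4445 at ZT14 and 4160 at ZT2 in ADX, and 4525 at ZT14 and 4261 at ZT2 in sham. The highest array was 1.09-fold above the lowest, against a median span of 1.19-fold over 99 probe sets of similar signal (within 2-fold) that were Present on all arrays. Otc, at chrX:10252230-10321024, had signals of 1143 at ZT14 and 1139 at ZT2 in ADX, and 1187 at ZT14 and 1188 at ZT2 in sham. Its span of 1.04-fold compares with a median of 1.22-fold over 351 probe sets of similar signal. The largest log2 difference of either gene in any of the 4 comparisons was 0.10, for Cps1 between ZT14 and ZT2 in ADX. All their differences were therefore within the robust SD of the comparison. Both genes had slightly lower signals in ADX than in sham at both times, by 0.03 to 0.06 on the log2 scale, an order that no replicate checks.

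The last enzyme, Arg1 (chr10:24915207-24927470), also varied little. Its signals were 2581 at ZT14 and 3057 at ZT2 in ADX, and 2910 at ZT14 and 2959 at ZT2 in sham. The ADX ZT14 array was the lowest, and the other arrays lay close together. The log2 difference between ZT14 and ZT2 in ADX was -0.24, under 1 robust SD, and 23.5% of 166 probe sets of similar signal differed at least as much. Arg2, the mitochondrial arginase of other tissues, was not Present on any array.

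Ass1, which encodes argininosuccinate synthetase (chr2:31470270-31520670), had the widest span of the 6 genes. Its signals were 75.4 at ZT14 and 14.7 at ZT2 in ADX, and 31.6 at ZT14 and 40.6 at ZT2 in sham. The ADX arrays held both the highest and the lowest value, and the sham arrays lay between them. Between ZT14 and ZT2 in ADX the difference was 5.13-fold (log2 2.36), or 7.20 robust SDs of that comparison. Of 2574 probe sets of similar signal, 0.389% differed at least as far. In sham, ZT14 was 1.29-fold lower than ZT2 (log2 -0.36), and 37.9% of 2615 probe sets of similar signal differed at least as far. ADX was 2.39-fold higher than sham at ZT14 (log2 1.26) and 2.76-fold lower at ZT2 (log2 -1.47). The last of these differences did not count, because the brighter array, sham ZT2, had a Marginal call for Ass1.

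The detection of Ass1 was weak on all 4 arrays, which bears on each of these values. Its deposited detection p-values were 0.0219 (ADX ZT14), 0.0352 (ADX ZT2), 0.0247 (sham ZT14) and 0.0490 (sham ZT2), where the highest p of any Present call was 0.0397. For Cps1, Otc and Arg1 the detection p was 0.000219 on every array. A single probe set represents Ass1, so no other set of probes checks its pattern. With the floor on dim signals raised to 20 units, above the ADX ZT2 signal, the ADX difference between ZT14 and ZT2 was 1.91 on the log2 scale, still past 2-fold. Kap, a kidney protein gene on the list of kidney markers, was also highest on the ADX ZT14 array, with a signal of 39.8 there, and was Absent on the other arrays. Of the 6 kidney markers, 3 were Present on at least 1 array, while Umod, Aqp2 and Cdh16 were not Present on any array. The summed signal of the list was 60.4 (ADX ZT14), 28.0 (ADX ZT2), 31.2 (sham ZT14) and 18.4 (sham ZT2), and Kap made up most of the ADX ZT14 sum. The other detected markers were not highest there. Slc34a1 was Present on sham ZT14 only (8.6, against 3.74 on ADX ZT14). Slc12a1 was Present on ADX ZT2 only (9.28, against 7.045 on ADX ZT14). The part of kidney RNA in the Ass1 values was not tested.

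Asl, which encodes argininosuccinate lyase (chr5:130011258-130024381), was higher at ZT14 than at ZT2 in both operations, short of 2-fold. Its brighter probe set had signals of 124 at ZT14 and 73.4 at ZT2 in ADX, and 118 at ZT14 and 93.9 at ZT2 in sham. The ZT14 arrays thus lay above both ZT2 arrays, and the ADX ZT2 array was the lowest. ZT14 over ZT2 was 1.69-fold in ADX (log2 0.76, 2.31 robust SDs) and 1.25-fold in sham (log2 0.33, 0.94 robust SDs). ADX was 1.28-fold lower than sham at ZT2 (log2 -0.36), and at ZT14 the log2 difference was 0.07. The other probe set of Asl was Absent on 3 arrays and Marginal on sham ZT14, with signals of 14.6 at ZT14 and 6.25 at ZT2 in ADX, and 16.5 at ZT14 and 9.81 at ZT2 in sham. Its differences had the same sign as those of the brighter probe set in 3 of 4 comparisons and the opposite sign for ADX against sham at ZT14, where it gave -0.18.

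Slc7a2 (chr8:40862341-40922070) was higher at ZT14 than at ZT2, and passed 2-fold in ADX. Its signals were 287 at ZT14 and 105 at ZT2 in ADX, and 216 at ZT14 and 140 at ZT2 in sham. Both ZT14 arrays lay above both ZT2 arrays, and the sham values lay inside the range of the ADX values, as for Ass1. ZT14 over ZT2 was 2.73-fold in ADX (log2 1.45, 4.43 robust SDs), and 1.20% of 1421 probe sets of similar signal differed at least as far. In sham the same ratio was 1.54-fold (log2 0.62, 1.80 robust SDs), under 2-fold. ADX was 1.33-fold higher than sham at ZT14 (log2 0.41) and 1.33-fold lower at ZT2 (log2 -0.42), each between 1 and 2 robust SDs. Detection was firm on all 4 arrays, with detection p-values of 0.000562 or lower.

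Macrophages and stellate cells can also express Slc7a2, and markers of both were measured. Of 12 markers of Kupffer cells and macrophages, 11 were on the array and 10 were Present on at least 1 array, with Marco not Present on any. The summed signal of the 11 was 1307 (ADX ZT14), 1450 (ADX ZT2), 1213 (sham ZT14) and 1350 (sham ZT2), lower at ZT14 in both operations. Of the 10 detected, 4 were higher and 6 lower at ZT14 than at ZT2 in ADX, and 1 was higher and 9 lower in sham. The part of macrophages in the Slc7a2 values was not tested. Of 8 stellate cell markers, 7 were on the array and 5 Present on at least 1 array, without Des and Pdgfrb. The summed signal of the 7 was 198 (ADX ZT14), 156 (ADX ZT2), 133 (sham ZT14) and 126 (sham ZT2). It was highest on the ADX ZT14 array, as Slc7a2 was. All 5 detected markers were Present on ADX ZT2, 3 on ADX ZT14 and 2 on each sham array. Between ZT14 and ZT2 in ADX, 3 of the 5 were higher and 2 lower. Col1a2 had the largest rise, with signals of 74.2 at ZT14 and 42.9 at ZT2. The part of stellate cells in the Slc7a2 values was not tested. In a bulk sample, fewer cells of a type and less RNA per cell cannot be told apart.

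**Figure D1:**
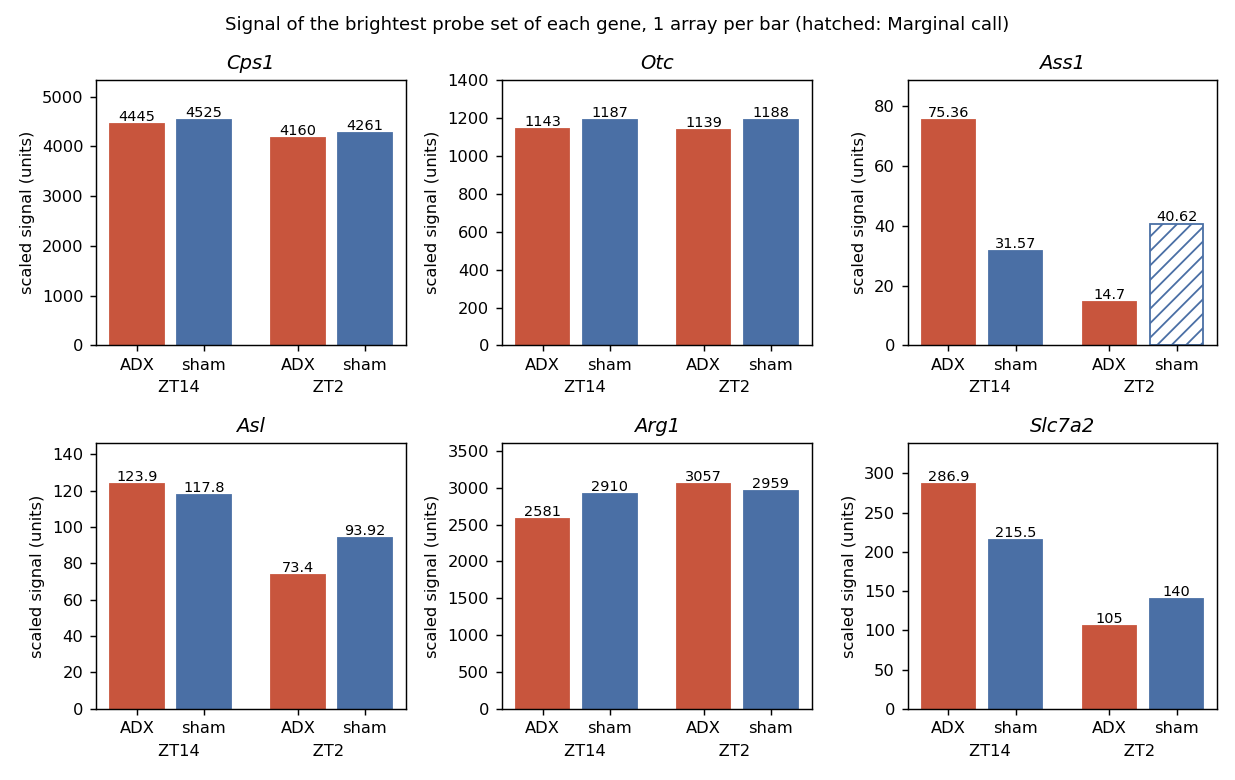
Scaled signal (units, linear axis from 0) of the brightest probe set of each gene, with 1 bar per array and the value above it. Red bars are ADX and blue bars sham, and the hatched bar marks the Marginal call of Ass1 on sham ZT2. Cps1, Otc and Arg1 are nearly level, while for Ass1 and Slc7a2 the ADX arrays hold both the highest and the lowest bar.

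Counted together, the genes moved most between the times of day in ADX. Of the 6 probe sets Present on at least 1 of the 2 arrays compared, 2 were at least 2-fold higher at ZT14 in ADX (Ass1 and Slc7a2) and 0 were lower. The share over all 6125 probe sets that could be called in that comparison was 5.34%, of which 2.89% were higher. At the smaller threshold of 1.5-fold, 3 of the 6 were higher (Asl as well), where 8.70% of all were. In sham, 0 of 6 passed 2-fold between ZT14 and ZT2 (background 5.95%), and Slc7a2 alone passed 1.5-fold (background 18.0%). For ADX against sham, 0 of 6 passed 2-fold at ZT2 (background 2.56%), and 1 of 6, Ass1, was higher at ZT14 (background 4.07%). The ADX day-night comparison and the ADX against sham comparisons share the ADX arrays, so Ass1 enters more than 1 of these counts through the same signals.

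The median log2 difference of the 6 genes between ZT14 and ZT2 was 0.43 in ADX, where 5007 genes Present on at least 1 array had a median of 0.01. In sham it was 0.04, with 0.00 over all genes. For ADX against sham the median was -0.21 at ZT2 and 0.02 at ZT14, with 0.01 and 0.03 over all genes. At ZT2, 5 of the 6 genes had a lower signal in ADX, Arg1 being the exception, where 48.3% of all probe sets were lower. With signals as deposited the count was 6 of 6, where 70.6% of all probe sets were lower, the sign of Arg1 having changed. After quantile normalization it was 4 of 6, where 50.8% of all were lower, the sign of Otc having changed.

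**Figure D2:**
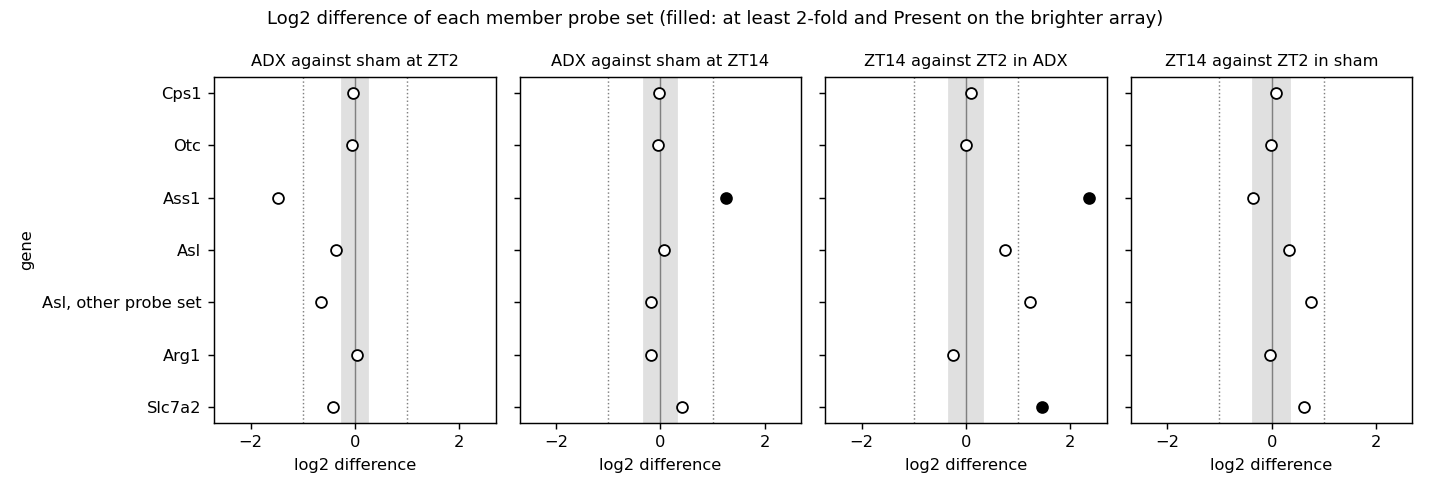
Log2 difference (x axis) of each of the 7 probe sets (rows) in the 4 comparisons. Grey bands span 1 robust SD of all probe sets Present on both arrays, dotted lines mark 2-fold, and filled points were at least 2-fold with a Present call on the brighter array. The filled points are Ass1 in ADX against sham at ZT14 (1.26), and Ass1 (2.36) and Slc7a2 (1.45) in ZT14 against ZT2 in ADX.

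The ADX ZT2 array had the lowest signal for 5 of the 6 genes, all but Arg1. Among 3889 genes Present on all arrays, 22.2% were lowest on that array. Ass1, Marginal on sham ZT2, is not among those genes. For Otc and Cps1 the order rests on small differences. Otc had 1139 on ADX ZT2 and 1143 on ADX ZT14, and Cps1 had 4160 on ADX ZT2 and 4261 on sham ZT2. The ADX ZT14 array had the highest signal for Ass1, Asl and Slc7a2, or 3 of 6 genes, where 28.0% of all genes were highest there. With signals as deposited, 4 of the 6 were lowest on ADX ZT2 (30.4% of all genes) and 2 were highest on ADX ZT14 (14.6% of all). After quantile normalization, 4 of the 6 were lowest on ADX ZT2 (22.1% of all) and 3 highest on ADX ZT14 (26.6% of all). The actin 3'/5' signal ratio, a measure of RNA quality, was also highest on ADX ZT2, at 1.73 (ADX ZT14), 1.89 (ADX ZT2), 1.71 (sham ZT14) and 1.69 (sham ZT2). The Gapdh ratio was lowest there, at 1.03 (ADX ZT14), 0.912 (ADX ZT2), 0.954 (sham ZT14) and 0.933 (sham ZT2), and the part of RNA quality in the members' order was not tested. Among 11 measured genes of glucose output 6 were lowest on ADX ZT2, as were 4 of 9 genes of aromatic amino acid breakdown.

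The day-night difference of ADX minus that of sham was 2.72 on the log2 scale for Ass1, 0.83 for Slc7a2 and 0.43 for Asl. It was 0.01 for Cps1, 0.01 for Otc and -0.22 for Arg1. Over probe sets Present on all arrays this quantity had a robust SD of 0.37. Of 2680 probe sets with a signal similar to that of Ass1, 0.112% stood at least as far apart, and for Slc7a2 3.86% of 1424 did. With 1 array per group the difference between the operations could not be tested.

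**Figure D3:**
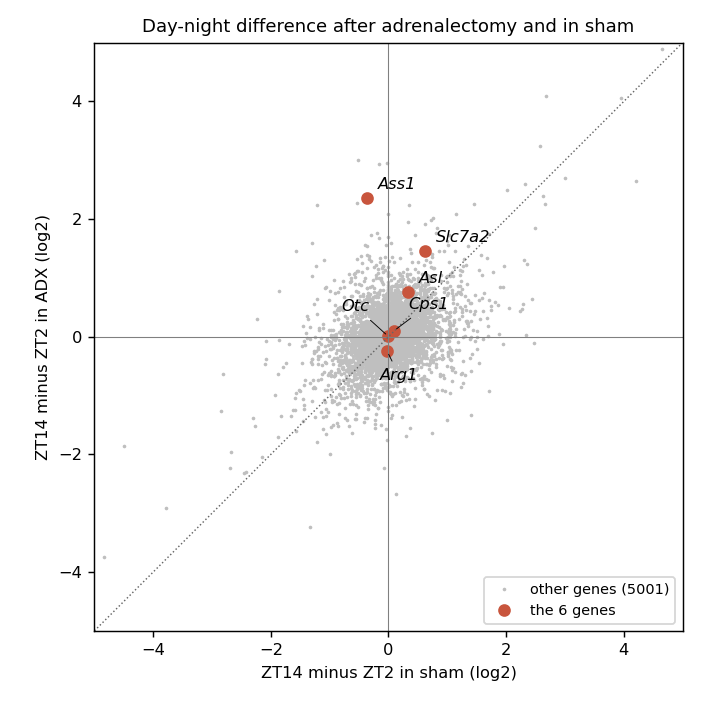
ZT14 minus ZT2 log2 difference in ADX (y axis) against that in sham (x axis) for 5007 genes Present on at least 1 array, 1 point per gene by its brightest probe set. The dotted line marks equal differences. Ass1 lies at 2.36 in ADX and -0.36 in sham, Slc7a2 at 1.45 and 0.62, and Cps1, Otc and Arg1 lie near the origin.

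Time and operation were also fitted together in limma as additive terms, which leaves 1 residual degree of freedom, over 5872 probe sets Present on at least 2 arrays. It treats the ADX and sham arrays of a time as samples of that time. None of the 6 member probe sets tested passed an adjusted p of 0.05 for time, where 2 probe sets in all did (0.0341%). An unadjusted p under 0.05 was found for 2 members and for 773 of the 5872 probe sets. Slc7a2 was higher at ZT14 by 1.04 (log2, SE 0.26, unadjusted p = 0.0159, limma adjusted p = 0.3), with the same direction in both operations. Asl was higher by 0.54 (SE 0.19, unadjusted p = 0.0448, limma adjusted p = 0.368), also in both. Ass1 had a time effect of 0.997 (log2) with an SE of 0.70 (limma adjusted p = 0.572), its operations having opposite directions. For the operation, 0 members and 0 probe sets in all passed in limma, 0 members and 329 probe sets had an unadjusted p under 0.05, and the lowest limma adjusted p of a member was 0.922. A p that misses the threshold does not show that the groups were alike.

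Neighbouring steps of nitrogen handling had no difference past 2-fold. Of 37 listed genes that feed or drain the urea cycle, 13 were on the array and 9 were Present on at least 1 array, and 0 of the 9 passed 2-fold in any of the 4 comparisons. Slc25a15, the carrier that brings ornithine into mitochondria, had signals of 677 at ZT14 and 873 at ZT2 in ADX, and 895 at ZT14 and 1048 at ZT2 in sham, so ADX was below sham at both times (log2 -0.40 at ZT14 and -0.27 at ZT2). The largest differences of this list were those of Hal, the first enzyme of histidine breakdown, between ZT14 and ZT2 in sham (-0.83), Aqp9, a liver channel for glycerol and urea, in ADX (0.47) and for ADX against sham at ZT2 (-0.41), and Glul, glutamine synthetase of the hepatocytes around the central vein, for ADX against sham at ZT14 (-0.53). The other probe set of Glul gave 0.19 for that last comparison. The list's median for ZT14 against ZT2 in ADX was 0.06, and that of the 6 genes was 0.43. For ADX against sham at ZT14 the medians were 0.07 for the list and 0.02 for the 6 genes, and the sets were not tested against each other.

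Genes that use arginine and ornithine were measured for 9 of 19 listed. Srm, spermidine synthase, was 2.00-fold higher at ZT14 than at ZT2 in sham (signals 77.8 and 38.9) and alone passed 2-fold in the list, in that comparison only. In ADX its signals were 58.1 at ZT14 and 58.8 at ZT2. Gatm, which transfers the amidino group of arginine to glycine in creatine synthesis, had a log2 difference of 0.76 for ADX against sham at ZT14, under 2-fold. Gamt, the next enzyme of creatine synthesis, had a log2 difference of 0.36 between ZT14 and ZT2 in ADX, the largest of the list among genes Present on at least 1 of those arrays. Ddah2, which breaks down methylated arginine, gave 0.37 and was Absent on both. The nitric oxide synthase genes Nos1, Nos2 and Nos3 were not Present on any array.

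Among amino acid transporters, Slc7a2 was the only one of the 9 Slc7 genes looked at on the array with a Present call. The related cationic carriers Slc7a1 and Slc7a3 were not Present on any array, nor were Slc7a5, Slc7a6, Slc7a7, Slc7a8, Slc7a9 and Slc7a11. Of 27 listed transporters, 21 were on the array, 9 were Present on at least 1 array and 0 passed 2-fold in any comparison. Slc38a2, a carrier of small neutral amino acids, had the largest difference for ADX against sham at ZT2 (-0.75), and Slc6a9, a glycine carrier, the largest between the times in sham (0.70). Among carriers Present on at least 1 of the 2 arrays, Slc6a9 also had the largest difference for ADX against sham at ZT14 (-0.80). Its signals were 84.75 in ADX and 147.4 in sham. Of the 9 measured, 5 were lower and 4 higher there. Slc3a1, a partner of the Slc7 cystine and cationic amino acid carrier, gave -0.84 for ADX against sham at ZT14, where neither array was Present, and -0.95 for ZT14 against ZT2 in ADX. Slc38a4, a hepatocyte carrier that also takes cationic amino acids, was level, with signals of 1351 at ZT14 and 1217 at ZT2 in ADX, and 1191 at ZT14 and 1190 at ZT2 in sham.

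Of 16 listed regulators of urea cycle genes, 10 were measured. Sp1, a general transcription factor, was 2.10-fold higher at ZT14 than at ZT2 in sham at signals of 16.7 and 7.96, and no other member passed 2-fold in any comparison. Cebpb, a C/EBP factor of the hepatic hormone response, was higher at ZT14 in ADX (214 at ZT14 and 115 at ZT2, log2 0.90) and in sham (219 at ZT14 and 137 at ZT2, log2 0.68), both under 2-fold. Nr3c1, the glucocorticoid receptor, had a log2 difference of -0.57 for ADX against sham at ZT14, at signals of 14.2 in ADX and 21.1 in sham. Gcgr, the glucagon receptor, lay between 399 and 461 on all 4 arrays.

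**Figure D4:**
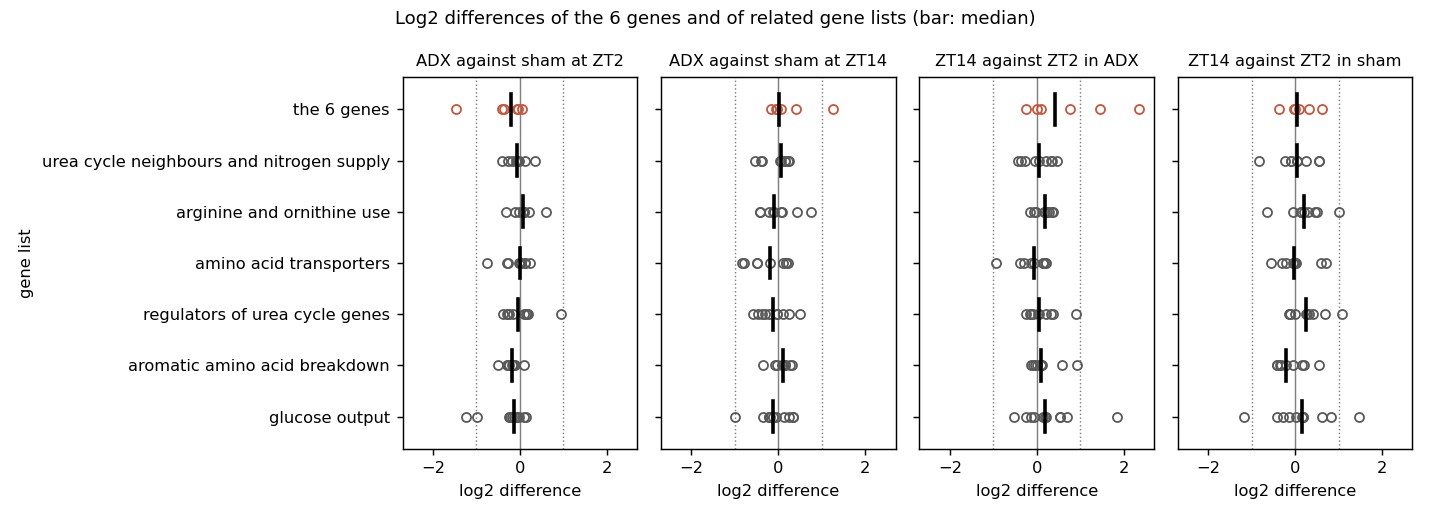
Log2 differences (x axis) of the 6 genes and of 6 related gene lists (rows) in the 4 comparisons, 1 circle per measured gene, with a black bar at the median and dotted lines at 2-fold. The 6 genes have the highest median in ZT14 against ZT2 in ADX (0.43), where the other lists have medians between -0.07 and 0.19.

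Aromatic amino acid breakdown and glucose output, liver pathways known to answer to glucocorticoids, were set beside the 6 genes. At ZT2 the median for ADX against sham was -0.19 over 9 measured genes of aromatic amino acid breakdown and -0.13 over 11 of glucose output, against -0.21 for the 6 genes. Between ZT14 and ZT2 in ADX these medians were 0.10 and 0.19. Pck1, a control enzyme of glucose synthesis, had signals of 498 at ZT14 and 138 at ZT2 in ADX, and 579 at ZT14 and 326 at ZT2 in sham, with a larger difference in ADX (log2 1.85) than in sham (0.83), as for Slc7a2. Tat (tyrosine aminotransferase) had log2 differences of 0.59 in ADX and 0.16 in sham. Gch1, which makes the cofactor of phenylalanine hydroxylase, had 0.94 and 0.54. At ZT14 the log2 difference for ADX against sham was -0.22 for Pck1, -0.07 for Tat and 0.09 for Gch1, against 0.41 for Slc7a2. At ZT2 Gch1 gave -0.30, so its sham signals, like those of Slc7a2, lay inside the range of its ADX signals. In the same lists G6pc, the last enzyme of glucose output, was 2.26-fold lower at ZT14 than at ZT2 in sham, and Slc37a4, the carrier of its substrate, was 2.77-fold higher. For ADX against sham, Slc37a4 was 2.00-fold lower at ZT14 (signals 439 and 879) and Pck1 was 2.36-fold lower at ZT2. G6pc fell short of 2-fold at ZT2 (log2 -0.99). Of the 11 genes of glucose output, 9 were lower and 2 higher in ADX at ZT2, and 7 lower and 4 higher at ZT14. Tdo2, which starts tryptophan breakdown, had the largest difference of the aromatic list for ADX against sham at ZT14 (-0.34).

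The genes most like Ass1 and Slc7a2 were sought by the distance between log2 profiles over the 4 arrays, each centred on its own mean, among 5001 genes Present on at least 1 array. For Ass1 the closest were Lmo1 (distance 0.16), Kifc3 (0.55), Ect2 (0.58), Shbg (0.65) and Pfdn5 (0.65). None of these 5 had a signal above 28.3 on any array, and 4 of them were Present on 1 array only. For Slc7a2 the closest were Ifi207 (0.12), Slc25a47 (0.19), Hspb11 (0.20), Gpcpd1 (0.22) and Vcam1 (0.23). Slc25a47, a mitochondrial carrier of the liver, was Present on all arrays, with signals of 748 at ZT14 and 266 at ZT2 in ADX, and 489 at ZT14 and 378 at ZT2 in sham. Among the 6 genes themselves the distance was smallest between Cps1 and Otc (0.09) and largest between Ass1 and Arg1 (1.86), and that between Ass1 and Slc7a2 was 0.95.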

How the data were processed

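Total RNA of mouse liver was hybridised to 4 MG_U74Av2 arrays, and groups were taken from the sample titles. Per the file headers, each deposited file lists the Affymetrix Signal of every probe set, which is a linear intensity. It adds a call (Present, Marginal or Absent) with the deposited p-value of detection. The software and the scaling target were not stated in the labels or headers. The deposited series table held the same intensities (largest difference 0). The run sheets show 1 hybridisation time and a wash module per array, so wash module and group cannot be told apart.

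Each array was scaled by 0.925 to 1.07 to a common 2% trimmed mean, signals under 3.91 units were raised to that floor, and values were put on the log2 scale. Of 12488 probe sets, 66 controls were dropped. The platform annotation gave 1 symbol for 10833 probe sets, several for 396 and none for 1193, and 10817 of the first matched RefSeq (GRCm38.p6). A gene was represented by its brightest probe set. The additive fit used limma 3.58.1 (R 4.3.3) with Benjamini-Hochberg adjustment, after a check on simulated data. Nothing in the labels says that arrays are separate animals. The 1 residual degree of freedom of the additive fit is the difference between the day-night differences of the operations. Its p-values rest on that difference, with limma sharing information over probe sets. They measure neither the spread between animals nor the technical spread between arrays of a group. Other steps used Python 3.11.15. The number of arrays limits the precision.

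The 6 genes and the related lists were chosen with earlier results of these data known. The genes named are the 6 members, list members past 2-fold, for a list with none past 2-fold in a comparison the largest difference among genes Present on at least 1 of its arrays, and the 5 profiles closest to each member that spans at least 2-fold. Arg2, Ddah2, Slc25a15, Slc38a4, Gcgr, Slc7 family genes, nitric oxide synthases and marker genes were named outside that rule, after their values were seen. Scaling, floor, threshold, detection rule and model were varied as given below.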

Additional observations from a re-analysis of the deposited data

Results flagged for a closer look

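Ass1 had log2 differences of opposite sign under the same contrast in different groups. For ADX against sham its log2 difference was 1.26 at ZT14 and -1.47 at ZT2, and for ZT14 against ZT2 it was 2.36 in ADX and -0.36 in sham. The sham difference was small, since 37.9% of 2615 probe sets of similar signal differed at least as far, and the sham ZT2 call was Marginal. Both statements rest on the same 4 signals, each from 1 array, and the difference was not tested.

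Slc7a2 likewise had a log2 difference for ADX against sham of 0.41 at ZT14 and -0.42 at ZT2, also not tested. Of 14 such pairs of effects over the 7 probe sets, 6 had opposite signs, and in these 3 both effects were also past the robust SD of their comparison.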

How the results depend on the processing

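Of 70 recalculated counts and medians over the members, 67 stayed within the limits set for them, as did 143 log2 differences of single genes, with 1 exception. Without the need for a Present call, 1 member (Ass1) passed 2-fold for ADX against sham at ZT2, against 0, while the number of all probe sets called there went to 799. At 1.5-fold, 1 member (Slc7a2) passed for ZT14 against ZT2 in sham, against 0. With a variance trend on signal in limma, 1 member passed for time, against 0. This was Slc7a2 (adjusted p = 0.0458, where its other settings gave up to 0.565), and 154 probe sets passed in all, against 2. With signals as deposited 20 passed for time, and 11 without the operation term. The Ass1 difference for ADX against sham at ZT2 was -1.02 with a floor of 20 units. The calls of Ass1 and Slc7a2 between the times in ADX and of Ass1 at ZT14 held under each scaling and floor tried. The median of the 6 genes was near 0 at ZT14 (ADX against sham) and in sham (ZT14 against ZT2), and signals as deposited turned it to -0.10 and -0.04, with all genes at -0.10 and -0.08. Over all probe sets, signals as deposited turned the split of 2-fold calls from 108 higher and 52 lower to 69 and 87 for ADX against sham at ZT2, and a floor of 20 units left 21 calls there, 54 at ZT14, 135 for ZT14 against ZT2 in ADX and 155 in sham. No paired analysis was possible because each group had 1 array and the labels give no replicate numbers. The additive fit takes each factor beside the other. Weak detection limits Ass1 and the dimmer Asl probe set.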
